A study of Mus musculus with 12 samples.

Results

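Ttr, Kl and Folr1 are 3 genes used as markers of the choroid plexus epithelium, and every probe set annotated to them alone was taken. They had 4 probe sets among 12488 on the array: 1 each for Ttr (95350_at) and Kl (100956_at), and 2 for Folr1 (93785_at and 162302_f_at). Of these, 3 passed the filter on dim probe sets (mean signal of at least 20.1), together with 7453 in all. In RefSeq annotation of GRCm38.p6, Ttr lies on chromosome 18, Kl on chromosome 5 and Folr1 on chromosome 7, so none of them is in the trisomic segment. The cerebella came from newborn (P0), P15 and P30 mice, where P is the postnatal day. They were euploid or Ts1Cje, a line with an added copy of a distal segment of chromosome 16, studied as a model of Down syndrome. RNA was pooled from 3 cerebella per genotype and stage, except the euploid P30 pool with 2, and each of the 6 pools was measured on 2 arrays. The labels do not state the strain, the sex or how each cerebellum was dissected.

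The choroid plexus is a sheet of secretory epithelium in the brain ventricles that makes cerebrospinal fluid, and the plexus of the fourth ventricle lies against the cerebellum. Ttr encodes transthyretin, a carrier of thyroid hormone and, through retinol-binding protein, of retinol, which this epithelium secretes into the fluid. Folr1 encodes folate receptor alpha, a membrane-anchored receptor that carries folate from blood to cerebrospinal fluid across the epithelium. Kl encodes klotho, a membrane protein that is a co-receptor for the hormone FGF23 and is also shed into fluid, and it is made in kidney and choroid plexus. In a bulk sample, a change in the share of choroid plexus cells and a change in RNA per cell cannot be told apart.

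Array values were signal intensities, scaled to a like level on all arrays, with array medians of 30.4 to 36.2. The 2 arrays of a pool share 1 RNA, so the pool was the replicate, and within a stage 1 pool was set against 1 pool without a test. As a check of the tissue, 7 of 7 tested Purkinje cell markers rose from P0 to P15, with a median log2 difference of 3.43, where limma called 13.6% of all tested probe sets higher. Pcp4, another such marker with a probe set, lay below the filter. The Ts1Cje P15 pool stood apart in Xist, a transcript of the silenced X chromosome in female cells, which was 105.6 and 77.6 on its arrays and 1.4 to 6.7 on the other 10. Without that pool the rises from P15 to P30 were 2.79 for Ttr, 2.48 for Folr1 and 2.21 for Kl on the log2 scale (limma adjusted p = 0.00189, 0.00435 and 0.00655). Within P15, a genotype difference cannot be told apart from this difference in Xist between the pools. As a measure of RNA integrity, 3' over 5' signal ran from 0.841 to 1.07 for the Gapdh controls and from 1.13 to 1.67 for the actin controls. By pool, the Gapdh ratio was lowest in the euploid P0 pool (0.852) and highest in the Ts1Cje P0 pool (1.03). The actin ratio was also lowest in the euploid P0 pool (1.19) but highest in the Ts1Cje P30 pool (1.61), with 1.3 in the Ts1Cje P0 pool.

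Ttr was the brightest of the 3 genes, and 8.11% of probe sets had a higher mean signal. In euploid cerebellum its signal was 357.0 and 361.3 on the P0 arrays, 120.3 and 128.1 at P15, and 671.4 and 644.4 at P30. In Ts1Cje cerebellum it was 142.9 and 137.1 at P0, 141.7 and 126.0 at P15, and 928.1 and 808.9 at P30. Both genotypes were thus highest at P30, and the euploid course dipped at P15 while the Ts1Cje course was level until P15. The arrays of the P30 pools lay above all others, and the arrays of the Ts1Cje P0 and P15 pools overlapped.

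**Figure D1:**
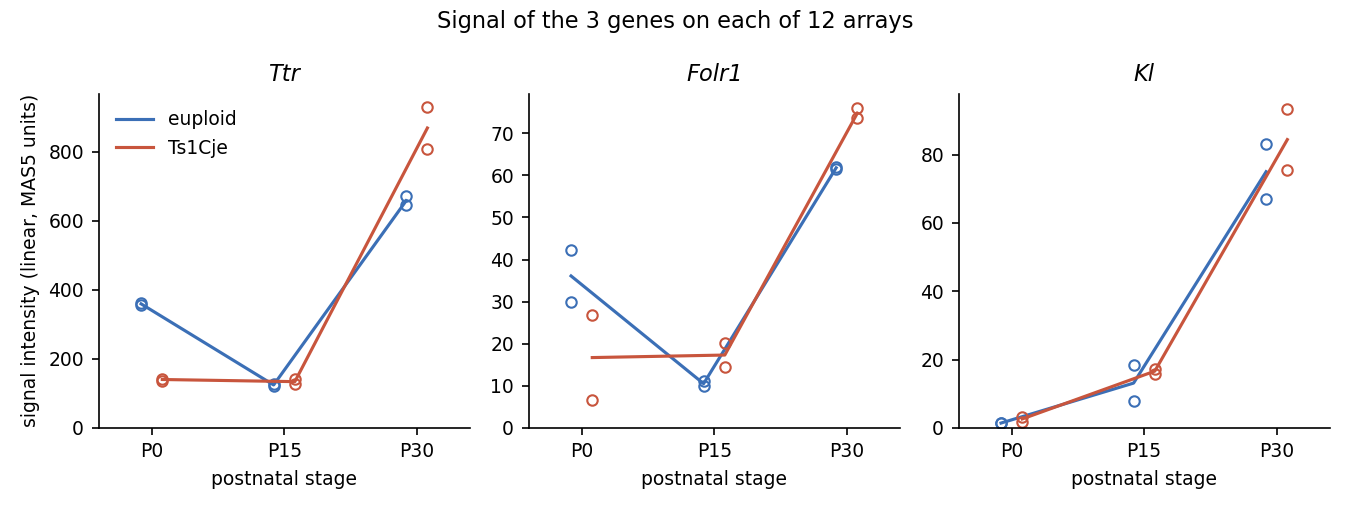
Signal intensity (linear MAS5 units, each axis from 0) of the brighter probe set of Ttr, Folr1 and Kl against postnatal stage. Open circles are the 12 arrays, and lines join the pool means of each genotype, blue for euploid and red for Ts1Cje. All 3 genes are highest at P30, and the Ttr pool means at P0 are 359.2 in euploid and 140.0 in Ts1Cje.

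Folr1 followed a like course at a signal near the middle of the array, where 49.6% of probe sets were brighter. Its brighter probe set read 29.9 and 42.3 in the euploid P0 pool, 9.9 and 11.1 at P15, and 61.9 and 61.6 at P30. In the Ts1Cje pools it read 6.7 and 26.7 at P0, 20.1 and 14.5 at P15, and 76.0 and 73.7 at P30. The P30 arrays were again above all others, but the 2 arrays of the Ts1Cje P0 pool were far apart, and the higher of them came close to the lower euploid one. The dimmer Folr1 probe set ranged from 3.3 to 7.4 over the 12 arrays, was outside the tests, and also had its highest pool means at P30, 6.8 in euploid and 7.4 in Ts1Cje.

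Kl had another course, with a rise at each step. Its signal was 1.4 and 1.5 in the euploid P0 pool, 18.4 and 7.8 at P15, and 66.9 and 83.0 at P30. In the Ts1Cje pools it was 3.3 and 1.8 at P0, 17.3 and 15.8 at P15, and 75.6 and 93.3 at P30. All P0 arrays lay below 4.6, the 20th percentile of all array values, and all P15 arrays below the filter, so Kl was tested only because of its P30 signal. The arrays of different stages did not overlap in either genotype, and those of the same stage overlapped between genotypes at P15 and P30.

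The stretch before the Kl start site is shown because Kl had a course of its own among the 3 genes and is the one matched in the RefSeq promoter table used here. It spans chr5:150952357-150952606 of GRCm38.p6 on the plus strand, 250 bases that end just before the annotated start, and capitals mark the GC box letters GGGCGG on either strand.
Kl: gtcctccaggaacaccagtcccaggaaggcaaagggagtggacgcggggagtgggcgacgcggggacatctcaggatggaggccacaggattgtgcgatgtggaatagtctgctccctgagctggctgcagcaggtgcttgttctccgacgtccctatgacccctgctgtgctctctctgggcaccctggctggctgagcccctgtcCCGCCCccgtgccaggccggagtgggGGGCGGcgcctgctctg
Its GC content was 66.8%, against a median of 52.4% over 32851 mouse promoters of the same length, of which 13.5% were richer. The GC box, the letters bound by Sp1-type factors, occurred 2 times, once per strand, and 32.7% of promoters held at least 1 and 16.7% at least 2. The letters TATAAA of the TATA box and TAATCC, the core bound by Otx factors, were searched on both strands with 0 matches each, and 12.4% and 6.25% of promoters held them. A match or its absence is a description of these letters in this window.

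The first comparison followed the genes over the stages with both genotypes in 1 additive model of genotype and stage. From P15 to P30 all 3 genes rose: Ttr 5.69-fold (log2 difference 2.51 ± 0.35 SE, limma adjusted p = 0.0088), Folr1 4.01-fold (2.00 ± 0.37, adjusted p = 0.0244) and Kl 4.43-fold (2.15 ± 0.25, adjusted p = 0.00408). Limma called 1.61% of tested probe sets higher in this comparison, and the 1st to 99th percentile of all log2 differences ran from -1.28 to 1.02. Kl passed the filter only through its P30 signal, so the filter favoured a rise of Kl to P30 among tested probe sets. The size of the Kl rise also followed the pseudocount, with 2.4 at a pseudocount of 1 and 1.64 at 16. The rise showed in each genotype alone, without overlap of arrays: by 5.14-fold in euploid and 6.30-fold in Ts1Cje pools for Ttr, 4.40-fold and 3.66-fold for Folr1, and 4.69-fold and 4.19-fold for Kl. The Folr1 call rested close to the threshold, and without the filter on dim probe sets its adjusted p was 0.0503 at the same difference.

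From P0 to P15 the genes went apart. Kl rose by 1.53 ± 0.25 on the log2 scale (limma adjusted p = 0.00271), where 13.6% of probe sets were called higher. Because its P0 signals were near 0, the size of this rise followed the pseudocount, with 2.38 at a pseudocount of 1 and 0.76 at 16, both called. Ttr had a difference of -0.78 ± 0.35 (95% interval -1.58 to 0.02, adjusted p = 0.132) and Folr1 -0.60 ± 0.37 (-1.44 to 0.23, adjusted p = 0.261), and neither passed, where 14.4% of probe sets were called lower. These values average unlike genotypes: the euploid pools differed by 2.83-fold for Ttr and 2.67-fold for Folr1, with both P15 arrays below both P0 arrays, and the Ts1Cje arrays overlapped. Without the euploid P0 pool the differences were 0.01 and 0.14, and without the Ts1Cje P0 pool they were -1.57 (adjusted p = 0.00133) and -1.35 (adjusted p = 0.0113). For Folr1, the second hybridisations alone gave -1.15 (adjusted p = 0.034) and the first alone -0.06.

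From P0 to P30 all 3 genes rose, where 19.4% of probe sets were called higher. The log2 difference was 3.67 ± 0.25 for Kl (limma adjusted p = 1.9e-05), 1.73 ± 0.35 for Ttr (3.31-fold, adjusted p = 0.00489) and 1.40 ± 0.37 for Folr1 (2.64-fold, adjusted p = 0.0164). Single pools gave Ttr 1.82-fold in euploid and 6.03-fold in Ts1Cje cerebellum, and Folr1 1.65-fold and 4.22-fold. For Kl no fold is given, since its P0 signals lie below the pseudocount, and the fitted log2 difference was 4.78 at a pseudocount of 1 and 2.4 at 16, both called. The Folr1 call ended with the second hybridisations alone (0.91, adjusted p = 0.0629), without the Ts1Cje P0 pool (0.66, adjusted p = 0.114) and without the Ts1Cje P30 pool (1.13, adjusted p = 0.0524). The Ttr call was kept at 0.94 without the Ts1Cje P0 pool and 2.52 without the euploid P0 pool.

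**Figure D2:**
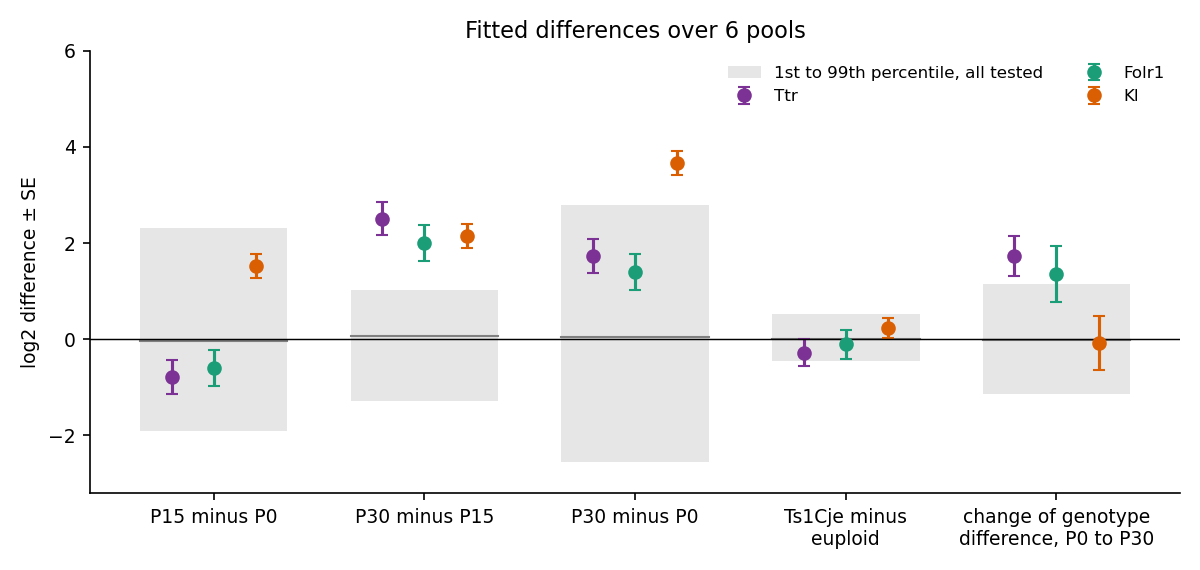
Log2 differences of Ttr, Folr1 and Kl from the limma fits (points, bars are ± SE), by comparison. Grey boxes span the 1st to 99th percentile of all tested probe sets, with a line at their median. From P15 to P30 the 3 genes, at 2.51, 2.00 and 2.15, lie above the box, which ends at 1.02.

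The wider choroid plexus list held 44 genes, of which 27 had a probe set and 16 besides the 3 genes passed the filter. From P15 to P30, 14 of these 16 had positive differences, with a median of 0.45 against 0.057 over all tested probe sets, and 3 rose and 0 fell by limma's test (9 and 0 at an unadjusted p under 0.05), where 1.61% of all tested probe sets were called higher and 3.13% lower. The 3 were Abca4, a retinoid transporter (1.16 ± 0.25, adjusted p = 0.0379), Calml4, a calmodulin-like protein (1.10 ± 0.25, adjusted p = 0.0437), and Car14, a membrane carbonic anhydrase (0.82 ± 0.18, adjusted p = 0.0419). Their calls were near the threshold, and with no filter, without the euploid P15 pool or without the Ts1Cje P30 pool 0 genes were called. Car12, another membrane carbonic anhydrase, had 1.37 ± 0.35 (adjusted p = 0.0669). Car12 and Rdh5 (0.38 ± 0.34), both among the 14 positive genes, passed the filter on mean signal only through their P30 arrays. The filter thus favoured a rise to P30 for these genes, and the share of positive differences is partly selected.

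From P0 to P15 the list was split, with 8 genes positive, 8 negative and a median of -0.06. The sodium-potassium-chloride carrier Slc12a2 (1.44 ± 0.19, limma adjusted p = 0.000898), the sodium pump subunit Atp1b1 (1.09 ± 0.17, adjusted p = 0.0023) and Car14 (0.73 ± 0.18, adjusted p = 0.0167) rose. Igfbp2, a binding protein of insulin-like growth factors (-1.20 ± 0.16, adjusted p = 0.000955), and the collagen Col8a1 (-0.84 ± 0.24, adjusted p = 0.0322) fell. These 3 rises and 2 falls among 16 genes are near the shares of all tested probe sets, 13.6% and 14.4%. Slc12a2 and Atp1b1 are also made by neurons and glia. From P0 to P30, 8 of the 16 rose and 1, Igfbp2, fell, with a median of 0.61. Of all tested probe sets, 19.4% were called higher and 19.6% lower between these stages. Rdh5, among the genes that rose (1.19 ± 0.34, limma adjusted p = 0.0234), passed the filter only through its P30 arrays. At P15, where euploid Ttr dipped, 8 of the 16 had their lowest euploid pool (50%), against 31.7% of all tested probe sets. At the same stage, 6 had their lowest Ts1Cje pool (37.5%, against 27.0%). Whether these shares differ was not tested. The 8 include Igfbp2 and Ace, which were nearly level from P15 to P30, with fitted differences of -0.02 and 0.03.

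**Figure D3:**
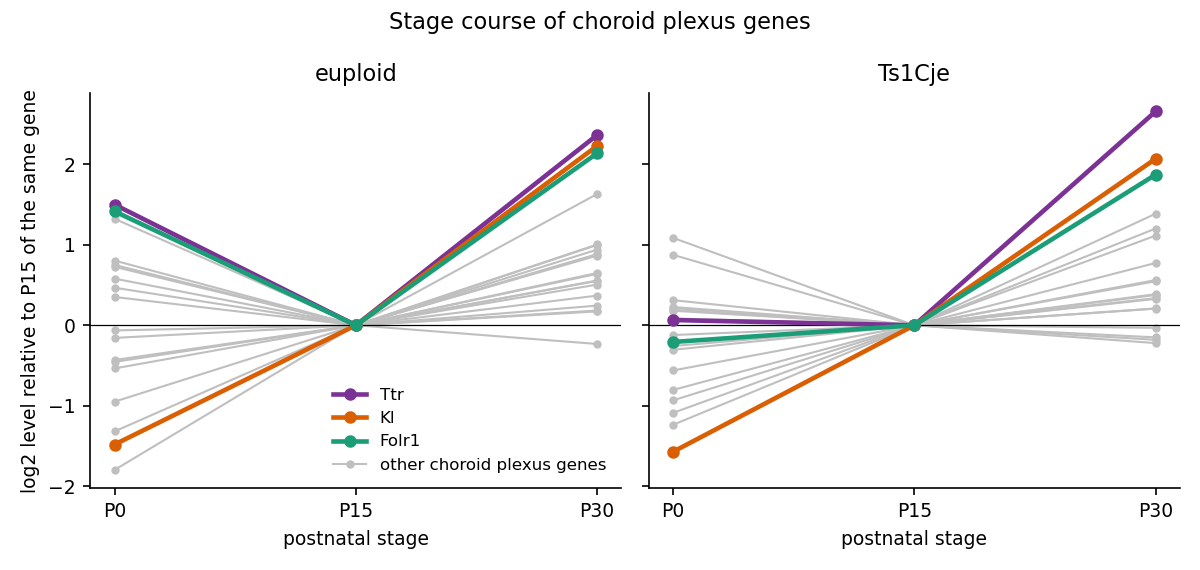
Log2 level of Ttr, Kl, Folr1 (coloured) and the other 16 tested choroid plexus genes (grey) relative to the P15 pool of the same gene, by postnatal stage, in euploid (left) and Ts1Cje (right) pools. In the euploid pools Ttr and Folr1 are above their P15 level at P0, by 2.83-fold and 2.67-fold, while in the Ts1Cje pools both are near 0 there.

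The next comparison was Ts1Cje with euploid cerebellum. Over the 3 stages the log2 difference, Ts1Cje minus euploid, was -0.28 ± 0.28 for Ttr (95% interval -0.93 to 0.37), -0.10 ± 0.30 for Folr1 (-0.79 to 0.58) and 0.24 ± 0.21 for Kl (-0.23 to 0.71), each with a limma adjusted p of 1. Limma called 0% of all tested probe sets, and 217 had an unadjusted p under 0.05. Without either P0 pool, which takes that stage out of the comparison, the difference was 0.25 for Ttr and 0.39 for Folr1, on the other side of 0.

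At P0, Ttr was lower in the Ts1Cje pool by 1.33 on the log2 scale, with 142.9 and 137.1 against 357.0 and 361.3, a signal ratio of 0.39. Of all tested probe sets, 0.322% had a difference as low. Folr1 was lower by 1.10, with 6.7 and 26.7 against 29.9 and 42.3, a signal ratio of 0.463, and 0.684% of probe sets were as low. Both Ts1Cje arrays lay below both euploid arrays for these 2 genes, as for 21.9% of all tested probe sets, and the share with a difference of at least 1.5-fold as well was 3.86%. Kl was above without overlap at P0, as were 22.4% of probe sets, but its 4 signals of 1.4 to 3.3 lie below the pseudocount and give no usable fold.

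At P15, Ttr overlapped between the genotypes, with a log2 difference of 0.10. Folr1 was above by 0.53, with 20.1 and 14.5 against 9.9 and 11.1, and 21% of probe sets were above without overlap at this stage. These Folr1 signals lie at or below the filter level of 20.1, and the first and second hybridisations alone gave 0.77 and 0.28. Kl overlapped with 0.32. At P30, Ttr was above by 0.40, or 1.32-fold, with 928.1 and 808.9 against 671.4 and 644.4, and 7.49% of probe sets were as high. Folr1 was above by 0.26, or 1.20-fold, with 76.0 and 73.7 against 61.9 and 61.6, and 19.6% of probe sets were above without overlap at this stage. Kl overlapped with 0.16, and the dimmer Folr1 probe set overlapped at every stage with -0.15, 0.17 and 0.08. The direction at P0 was therefore opposite to that at P30 for Ttr and Folr1, by 1 pool per genotype and stage.

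**Figure D4:**
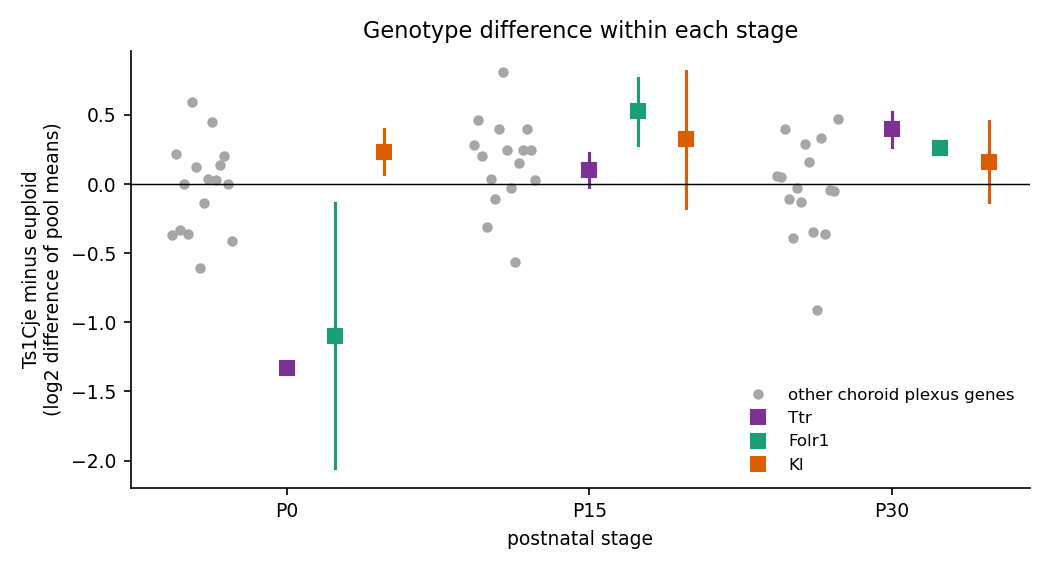
Log2 difference, Ts1Cje minus euploid, within each stage for Ttr, Folr1 and Kl (squares) and the other 16 tested choroid plexus genes (grey), each from 1 pool against 1 pool. Bars span the lowest to highest difference between any Ts1Cje array and any euploid array of the stage. Ttr goes from -1.33 at P0 to 0.40 at P30 and Folr1 from -1.10 to 0.26, while Kl lies between 0.16 and 0.32, with P0 signals below the pseudocount.

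A model with a genotype difference that changes linearly with day tested this turn. The change from P0 to P30 was 1.73 ± 0.41 for Ttr (95% interval 0.81 to 2.64), 1.36 ± 0.59 for Folr1 (0.05 to 2.66) and -0.07 ± 0.56 for Kl (-1.32 to 1.18). The unadjusted p was 0.0017, 0.043 and 0.903, and each limma adjusted p was 1. Limma called 0% of probe sets here too, and 193 had an unadjusted p under 0.05. The fit had 1 residual degree of freedom, so the change for Ttr and Folr1 is a value that did not pass correction.

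The other choroid plexus genes were split between the genotypes at P0. At this stage, 3 of the 16 were below without overlap, the peptidase Ace (-0.36), Car12 (-0.61) and Abca4 (-0.41), while 4 were above, 9 overlapped and the median was 0.01. Both counts are near the shares of all tested probe sets, 21.9% below and 22.4% above. Within P15, 9 were above and 2 below, with a median of 0.22, where 21% of all tested probe sets were above and 18.5% below. The Ts1Cje P15 pool is the one that stood apart in Xist, and at this stage the 2 differences cannot be told apart. Within P30, 3 were above and 5 below, with a median of -0.04, where the shares were 19.6% and 19.8%. Medians of all tested probe sets were 0.017, 0.006 and -0.001. The summed signal of the 27 genes was 1740 to 1810 on the euploid P0 arrays and 1640 to 1720 on the Ts1Cje P0 arrays. It was 1840 to 1940 and 2010 to 2070 at P15, and 2860 to 2950 and 3090 to 3180 at P30, and these sums include Ttr. They also include Atp1b1 and Slc12a2, which neurons and glia also make, and Slc12a2 alone read 868.6 and 805.8 on the euploid P15 arrays.

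Other tissues that can be carried with a cerebellum were read from their own markers. Of the meninges list, 12 of 12 tested genes were positive at P0 with a median of 0.46, and 7 were above without overlap, as were 22.4% of all tested probe sets. Their summed signal over 18 genes was 3240 to 3320 in euploid and 4390 to 4780 in Ts1Cje arrays at P0, the opposite direction to Ttr and Folr1. At P15 it was 3190 to 3950 and 4030 to 4760, and at P30 5270 to 6480 and 5320 to 6840. Ptgds and Igf2 make up most of these sums. At P0, Ptgds overlapped, with 861.6 and 796.1 in euploid and 1607.2 and 824.5 in Ts1Cje arrays, while Igf2 was above without overlap (0.45). Ptgds, a prostaglandin D synthase of meninges that choroid plexus and oligodendrocytes also make, rose from P15 to P30 by 1.47 ± 0.14 (limma adjusted p = 0.00205). The collagens Col1a1 (-1.54 ± 0.25, adjusted p = 0.0157) and Col3a1 (-1.12 ± 0.25, adjusted p = 0.0447) fell, and the other 9 tested meninges genes were not called at that step. Markers of ependyma, the ciliated lining of the ventricles, summed over 5 genes to 264 to 314 and 279 to 358 at P0, 428 to 446 and 423 to 424 at P15, and 300 to 304 and 321 to 350 at P30. The part of meninges and ependyma in the results was not tested.

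Blood markers summed over 6 genes to 4530 to 4960 in euploid and 3160 to 3470 in Ts1Cje arrays at P0. They were 6420 to 8100 and 2580 to 3010 at P15, and 4570 to 4960 and 2600 to 2930 at P30. The globins Hba-a1 and Hbb-b2 make up most of these sums. Both, and Alas2 of heme synthesis, were below without overlap at each stage, while Rhag had 0.63, 0.04 and 0.21, and limma called 0 genes of the list between genotypes (3 lower at an unadjusted p under 0.05). Endothelial markers, 11 genes, summed to 768 to 775 and 871 to 920 at P0, 838 to 950 and 960 to 990 at P15, and 824 to 847 and 901 to 963 at P30. The part of blood and vessels in the results was not tested. Liver also makes transthyretin. Of its 15 genes with a probe set, 3 passed the filter: Hp, with signals of 31.4 to 76.8, Cps1, with 20.2 to 46.6, and Rbp4, with 13.4 to 70.4. Among the 12 below it, albumin ranged from 1.7 to 29.7, Apoa1 from 2.3 to 9.2 and the fibrinogen chain Fgb from 0.4 to 4.2. The part of liver transcripts in the results was not tested. The liver list summed to 133 to 158 and 172 to 176 at P0, 124 to 126 and 146 to 162 at P15, and 239 to 250 and 175 to 225 at P30. In every list, 0 genes were at 0 on both arrays of a pool.

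Over the 6 pools, the probe set with the course most like that of Ttr, among 6744 compared, was that of Folr1, with a Pearson r of 0.99. The next were Gtf2f1 (0.984), a general transcription factor subunit, H2-M2 (0.981), Dcaf12 (0.977) and Cdc45 (0.977), a factor of DNA replication. For Folr1 they were Ttr (0.99), the RNA polymerase subunit Polr2e (0.986), Gtf2f1 (0.984), the mitochondrial ribosomal protein Mrpl2 (0.984) and Dcaf12 (0.981). For Kl they were Cstb (0.998), a protease inhibitor, A2m (0.997), another protease inhibitor, Wdr45 (0.997), Bhlhe40 (0.997) and Mapk12 (0.997), and Kl reached 0.68 with Ttr and 0.684 with Folr1. The 6 points share pools and stages, and the values describe likeness only.

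The genes that handle the same cargo as the 3 proteins were then followed. For thyroid hormone and retinol, 9 of 20 genes with a probe set passed the filter. From P0 to P15, 4 rose and 2 fell, where 13.6% and 14.4% of all tested probe sets did. Dio2, which activates thyroid hormone (3.21 ± 0.17, limma adjusted p = 8.49e-06), Klf9, a target of thyroid hormone (2.26 ± 0.20, adjusted p = 0.000142), the retinal dehydrogenase Aldh1a1 (1.84 ± 0.13) and the corepressor Hr (1.07 ± 0.17) rose. The retinoic acid-binding protein Crabp1 (-2.62 ± 0.44, adjusted p = 0.00302) and the thyroid hormone receptor Thra (-0.43 ± 0.13, adjusted p = 0.0411) fell. Crabp1 passed the filter only through its P0 signals of 37.7 to 70.5, and its later signals of 1.0 to 10.5 were partly below the pseudocount. From P15 to P30, Aldh1a1 rose further (0.75 ± 0.13, adjusted p = 0.0226) and Dio2 fell (-0.72 ± 0.17, adjusted p = 0.0498).

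Rbp4, the retinol-binding protein that travels with transthyretin, had a difference of 1.0 ± 0.37 from P15 to P30 (limma adjusted p = 0.17). Its signals were 15.6 and 15.8, 19.9 and 13.4, and 58.2 and 70.4 in the euploid pools at P0, P15 and P30. In the Ts1Cje pools they were 31.4 and 25.4, 25.2 and 25.1, and 27.4 and 36.4. Rbp4 was thus above in Ts1Cje at P0 (0.70) and P15 (0.50) and below at P30 (-0.92), each without overlap. Its directions at P0 and P30 were opposite to those of Ttr. Of all tested probe sets, 22.4% and 21% were above without overlap at P0 and P15, and 19.8% below at P30. Rbp4 was named after its values were seen, and limma did not call it between genotypes.

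For the klotho and FGF receptor system, 7 of 15 genes with a probe set passed the filter. From P0 to P15, 3 rose and 0 fell (3 and 1 at an unadjusted p under 0.05), where 13.6% and 14.4% of all tested probe sets did: the receptor Fgfr2 (1.15 ± 0.18, limma adjusted p = 0.00196), the phosphate carrier Slc20a1 (1.03 ± 0.15, adjusted p = 0.00129) and Adam10 (0.84 ± 0.15, adjusted p = 0.00454), a protease that sheds klotho. From P15 to P30 the receptor Fgfr1, a partner of klotho, rose (0.95 ± 0.16, adjusted p = 0.0215) and Adam10 fell (-0.86 ± 0.15, adjusted p = 0.0233).

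For folate uptake and one-carbon metabolism, 8 of 11 genes with a probe set passed the filter. From P15 to P30, when Folr1 rose, limma called 0 of these 8 (1 at an unadjusted p under 0.05). Of all tested probe sets, 1.61% were called higher and 3.13% lower at that step, so 0 of 8 is near these shares. The reduced folate carrier Slc19a1 had 0.32 ± 0.18 at that step (limma adjusted p = 0.326). From P0 to P30, where 19.4% and 19.6% of all tested probe sets were called higher and lower, 2 folate genes rose and 1 fell. Folr2, another folate receptor (0.73 ± 0.23, adjusted p = 0.033), and Gldc of the glycine cleavage system (0.68 ± 0.22, adjusted p = 0.0403) rose, and the mitochondrial enzyme Mthfd2 fell (-0.98 ± 0.21, adjusted p = 0.0061). Of the 3 lists, limma called 0 genes between genotypes, with 2 at an unadjusted p under 0.05, both in the folate list. Gart, a folate-using enzyme of purine synthesis in the trisomic segment, had 0.45.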

How the data were processed

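RNA of 6 pools of cerebella was measured on 12 Affymetrix arrays. The authors deposited linear intensities made with MAS5, per the submitters' processing notes, and its version and settings are not stated there. Each array had been scaled to a trimmed mean of 100.05 to 100.06 (2% trimmed at each end), and was used as scaled. Precision is limited by signal over background and by the number of arrays. Detection calls were not analysed here.

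Values were taken as log2(signal + 4.6), the 20th percentile of all values, so each fold change is on that scale and understates changes of dim genes. The 66 control probe sets and those with a mean under 20.1, the 40th percentile of the other means, were left out. Gene names came from the platform annotation (10855 probe sets with 1 symbol, 396 with several, 1237 with none), and 10843 of the symbols matched RefSeq. For each listed gene, the brightest probe set was used.

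Both arrays of a pool were averaged. The fits used limma 3.58.1 under R 4.3.3 (lmFit, eBayes with trend, two-sided, Benjamini-Hochberg over 7453 probe sets, threshold 0.05). The additive model had 2 residual degrees of freedom and the model with day 1. Each genotype and stage had 1 pool, so the residual is the departure of the pools from the fitted model. The eBayes step added 6.39 prior degrees of freedom in the additive model and 9.51 in the model with day, taken from all tested probe sets. A p-value or interval here therefore does not measure the spread between replicate pools. Plots used matplotlib 3.10.9 under python 3.11.15, and the fit was tested on simulated data. Alternatives were the pseudocount, the filter, quantile normalization, the trend, single hybridisations, a replicate block and leaving out each pool.

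The 3 genes, the 10 gene lists and the tests were chosen with earlier results of these data known. Of each list, the text names up to 6 called genes with the largest differences and the 3 brightest, any tested choroid plexus gene, and the 5 genes most alike in course. Rbp4, Slc19a1, Gart, Apoa1, Fgb, Rhag, Pcp4 and Xist were also named, after their values were seen.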

Additional observations from a re-analysis of the deposited data

Results flagged for a closer look

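For Ttr, the genotype difference, Ts1Cje minus euploid, was -1.33 at P0 and 0.40 at P30 on the log2 scale, in opposite directions and without overlap of arrays at either stage. For Folr1 it was -1.10 at P0, and 0.53 at P15 and 0.26 at P30, again in opposite directions without overlap. At P0 the Folr1 difference was -1.61 by the first hybridisations alone and -0.58 by the second. Its dimmer probe set overlapped at every stage. Of all tested probe sets, 21.9% were below without overlap at P0, and 21% and 19.6% above at P15 and P30. Each genotype difference sets 1 pool against 1 pool, and the difference between single stages was not tested. The linear change with day, given above, had an adjusted p of 1 for both genes by limma. Groups of 2 arrays were too small to look for single arrays that stand apart.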

How the results depend on the processing

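Of 361 alternative values, 313 kept their direction and side of the threshold or moved little, 27 moved, 11 reversed, 6 gained and 4 lost a call. The rises of the 3 genes from P15 to P30 kept their call in each alternative that gave a value, except Folr1 with no filter (2.00, adjusted p = 0.0503), and Kl was not tested with a filter at the median. From P0 to P15, Ttr was called at an unchanged -0.78 with a replicate block (adjusted p = 0.0336) and without the euploid or the Ts1Cje P30 pool (0.0135 and 0.0145), and ran from -1.57 to 0.01 with 1 pool left out, and Folr1 was -1.15 and -0.06 with the second and first hybridisations alone and ran from -1.35 to 0.14. From P0 to P30, Folr1 was 0.91 and 1.89 with single hybridisations and 0.66 to 2.15 with 1 pool left out. The 353 probe sets called from P15 to P30 became 199 with no filter, 183 without the trend, 898 with the replicate block, 98 and 746 with single hybridisations, and 141 to 508 with 1 pool left out. Calls from P0 to P30 ranged from 1830 to 3293 with 1 pool left out. For genotype, the 0 calls became 6 with the replicate block and 0 to 6 with 1 pool left out, Ttr ran from -0.61 to 0.25 and Folr1 from -0.42 to 0.39. The change with day had 9 calls with the second hybridisations alone and 0 with the first, and for Kl it was 0.06 at a pseudocount of 16, 0.06 with quantile normalization, and 0.09 and -0.23 with single hybridisations. That model could not be fitted with 1 pool left out. Within stages, Ttr at P0 was -1.27 and Folr1 at P30 0.22 at a pseudocount of 16, Kl at P0 was 0.50 at a pseudocount of 1, and with single hybridisations Ttr at P15 ranged from -0.02 to 0.23 and Kl at P15 from -0.07 to 0.72. Other choroid plexus genes called higher from P15 to P30 were 0 with no filter, 1 with quantile normalization, without the trend and with each hybridisation alone, and 5 with the replicate block. From P0 to P30 they were 4 with the second hybridisations alone and 5 without the Ts1Cje P0 pool. Same-numbered hybridisations deviated together little in the median (r 0.071 over 15 pairs), but single pairs ran from -0.124 to 0.354. Whether the hybridisation number marks an effect shared by the pools was not tested. The cause of these shifts was not tested, beyond fewer pools or other probe sets entering a fit.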

Other observations

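Among choroid plexus genes below the signal filter, Slc4a5, a bicarbonate carrier of this epithelium, was singled out after its values were seen because its array pattern by genotype had the directions of Folr1. Its euploid signals were 17.4 and 12.4 at P0, 7.5 and 7.8 at P15, and 23.6 and 22.9 at P30. Its Ts1Cje signals were 8.3 and 6.5, 10.1 and 8.2, and 31.6 and 32.9. The Ts1Cje arrays were below the euploid arrays at P0 (log2 difference -0.69) and above at P15 (0.16) and P30 (0.40), without overlap. Of all tested probe sets, 21.9% were below without overlap at P0, and 21% and 19.6% above at P15 and P30. Other choroid plexus genes below the filter did not share the P0 direction without overlap. Cldn1 was above at P0 (0.26), and Aqp1, Cldn2, F5, Krt8, Krt18 and Htr2c overlapped. The values of Slc4a5 were not tested, and most of them lie close to background.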
